A study of Fukomys damarensis with 16 samples.

Results

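Ovary and testis of the Damaraland mole-rat, Fukomys damarensis, were compared as organs through 4 of the 16 poly(A)-selected RNA libraries of the study. The ovary was represented by 1 library of a breeding female and 1 of a non-breeding female aged 3 years, and the testis by 1 library of a breeding male and 1 of a non-breeding male aged 5 years. No age is given for the breeders, and no strain, treatment or animal identity for any library, so that breeding status, age and individual cannot be told apart within a gonad. The other 12 libraries are of kidney, liver and brain, each from a breeding and a non-breeding animal of both sexes, with the same ages given for the non-breeders. Of the 4 brain libraries, 3 are labelled frontal brain and that of the non-breeding male brain, and they are treated here as 1 tissue. The libraries were chosen by their tissue labels alone, and genes were tested if they reached 1 RPKM (reads per kilobase of gene model and per 1000000 reads) in at least 2 of the 4 gonad libraries. This left 15464 of 21082 genes. Of the 5618 genes left out, 959 reached 1 RPKM in exactly 1 gonad library and 471 had no read in any of them. The second highest value of the 4 was 1.001 RPKM for the gene just inside this limit and 0.9982 RPKM for the gene just outside it.

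The Damaraland mole-rat is a burrowing rodent in whose colonies reproduction is largely confined to a breeding pair, while other adults help without breeding. Both gonads produce gametes and sex steroids, but their make-up differs. The adult testis is packed with seminiferous tubules in which germ cells pass through mitosis, meiosis and the reshaping of spermatids, supported by Sertoli cells, with steroid-making Leydig cells between the tubules. In the ovary germ cells are few, each enclosed in a follicle of granulosa and theca cells, and most of the tissue is stroma, vessels and, after ovulation, corpora lutea. Testes of mammals are known for transcribing an unusually wide range of genes, many of them in meiotic and post-meiotic germ cells.

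The table identifies genes by study identifiers only. None of them (0 of 21082) matched a name, locus tag, synonym or accession among the 33132 genes of the RefSeq table of the species, so no gene below carries a symbol or a known function, marker genes of germ, Sertoli, Leydig, granulosa or theca cells could not be looked up, and no sequence is shown. The genes are described by their levels, their coding length and their expression in kidney, liver and brain. Reads on genes numbered 23295227 in the breeding ovary, 17641918 in the non-breeding ovary, 18555319 in the breeding testis and 26730187 in the non-breeding testis, and between 15393003 and 27593857 in the other 12 libraries.

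Expression was broader in the testis. At least 1 RPKM was reached by 14925 genes in the testis of the breeder and 15077 in that of the non-breeder, against 13796 and 13288 genes in the corresponding ovaries. Both testis libraries thus lay above both ovary libraries. Thinned to the same 17641918 reads on genes, the testis libraries held 17366 (breeding) and 17355 genes with at least 5 reads and the ovary libraries 15814 (breeding) and 15255. With 2 libraries against 2, an exact two-sided permutation test cannot give a p under 0.333, so these counts are a description. Both gonads shared most of their genes: 12181 genes were at 1 RPKM or more in all 4 libraries, 1793 in both testis and neither ovary library, and 533 in both ovary and neither testis library.

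The ovary drew more of its RNA from abundant genes. Its 100 most abundant genes took 21.1% of the reads on genes in the breeding library and 20.8% in the non-breeding library. The corresponding shares in the testis were 12.7% (breeding) and 12.4%. The single most abundant gene took 1.41% and 1.61% of the reads in the ovary libraries and 0.702% and 0.895% in the testis libraries. The libraries of a gonad differed by far less than the 2 gonads in the share of the top 100. More genes exceeded 100 RPKM in the breeding ovary (902) and the non-breeding ovary (854) than in the breeding testis (668) or the non-breeding testis (839). These counts are of RPKM as deposited, and a fixed limit depends on the scaling.

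**Figure D1:**
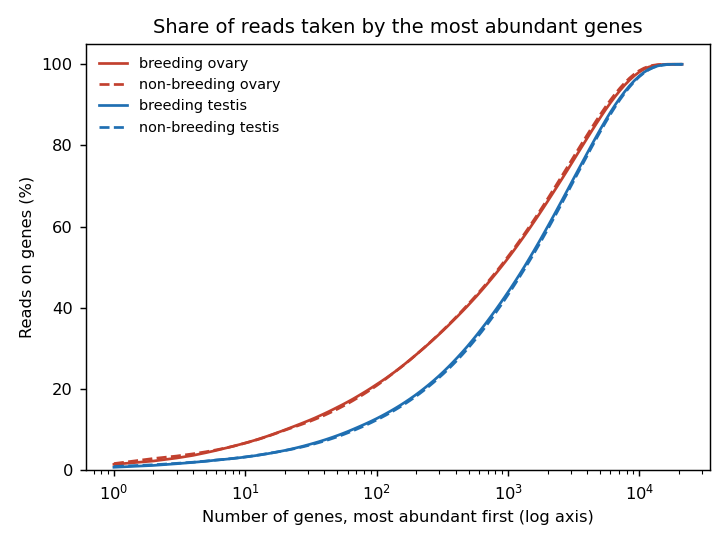
Share of the reads on genes (vertical axis, percent) taken by the most abundant genes of each gonad library, counted from the most abundant gene on a log axis. Both ovary curves (red) lie above both testis curves (blue) over the first 1000 genes, where the ovary libraries reach 52.2% and 52.7% and the testis libraries 43.9% and 43.2%; solid lines are breeding and dashed lines non-breeding libraries.

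The gonads differed in a large part of their genes. Log2(RPKM + 1) values were compared with limma, a linear model across all genes that shares the spread between them, and a gene was called at a Benjamini-Hochberg adjusted p of 0.05 or less and a log2 difference of at least 1. Of 15464 genes, 7294 were called, or 47.2%. Higher in the testis were 4021 genes (26% of those tested) and higher in the ovary 3273 (21.2%). In bulk tissue a difference in the number of cells of a type cannot be told apart from a difference in RNA per cell. The spread against which genes were tested is that between a breeding and a non-breeding library of the same gonad. Both testis libraries lay above both ovary libraries for 6544 genes (42.3%), and both ovary libraries above both testis libraries for 6264 (40.5%).

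The majority of calls was higher in the testis as deposited (55.1%) but depended on the scaling and on the libraries. Without the breeding testis 45.7% of the calls were higher in the testis, and without the non-breeding testis 42.1%, where genes read in the testis alone mostly fail the filter and the testis calls numbered 2146 and 1984. Scaling each library to its reads on genes moved the median difference of all genes from 0.03 to 0.21 on the log2 scale and gave 4825 genes higher in the testis and 2896 higher in the ovary (62.5% testis). Quantile normalization moved the median to -0.15 and reversed the majority, with 3310 and 4009 genes (45.2% testis). No gene called in one direction was called in the other under any of the 15 alternative fits.

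Differences were larger on the testis side. Calls higher in the testis had a median log2 difference of 1.96 and reached 10.49, while those higher in the ovary had a median of -1.63 and reached -5.91. At 16-fold or more, 522 genes were called higher in the testis and 52 higher in the ovary, and at 64-fold or more 113 and 0. Differences on the log2(RPKM + 1) scale understate those of genes near 0 in the lower gonad. Among the 403 tested genes with a mean below 1 RPKM over the 4 libraries, 47.1% were called higher in the testis and 5.71% higher in the ovary. Such a gene is tested only if 2 libraries reach 1 RPKM, mostly those of the gonad where it is high, so the filter itself shapes these shares. Among the 773 genes with a mean of 100 RPKM or more the order was reversed, with 18.9% called higher in the testis and 40.8% higher in the ovary.

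**Figure D2:**
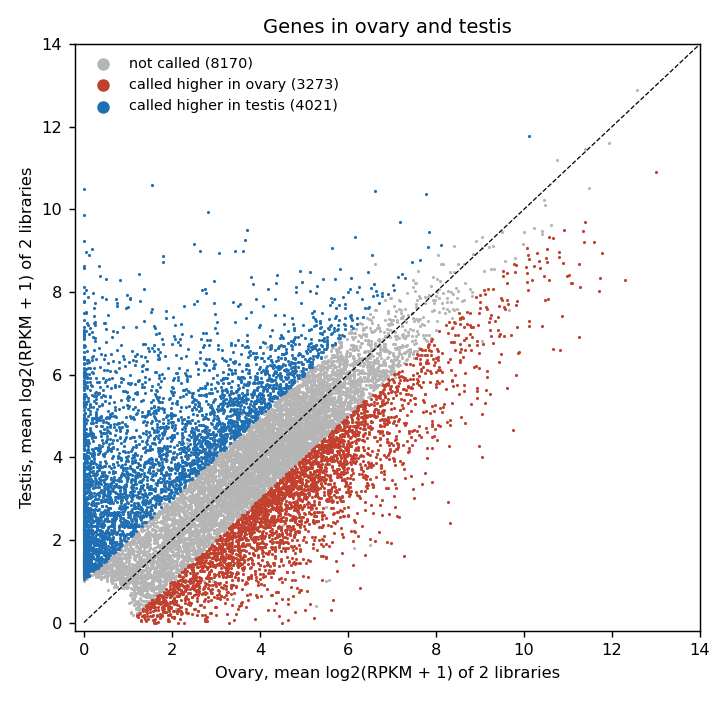
Mean log2(RPKM + 1) of the 2 ovary libraries (horizontal axis) and of the 2 testis libraries (vertical axis) for the 15464 genes tested, with genes called higher in testis in blue (4021), higher in ovary in red (3273) and not called in grey (8170). Blue points reach down the left edge, where the ovary level is near 0, whereas few red points lie along the bottom edge; the dashed line marks equal levels.

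For 3388 genes (21.9%) the 95% interval of the log2 difference lay within 1 in either direction. On the log2(RPKM + 1) scale this does not bound the fold of RPKM for genes of low level. A further 4782 genes (30.9%) were not called but had an interval reaching 1 or more, so that a difference of 1 on this scale was neither called nor bounded.

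Genes called higher in the testis took 33.9% of the reads on genes in the testis of the breeder and 36.5% in that of the non-breeder, and 6.15% and 6.31% in the breeding and non-breeding ovary. Genes called higher in the ovary took 46.0% and 45.2% in the ovary libraries and 12.3% and 12.5% in the testis libraries. The fewer genes of the ovary side thus held a larger part of their organ's reads than the more numerous genes of the testis side. Of the 100 most abundant genes of the ovary, 79 were called higher there and 1 higher in the testis, beside 40.8% and 18.9% of all genes with a mean of 100 RPKM or more. Lists picked by the level in a gonad lean toward calls in that gonad by their construction. Of the 100 most abundant genes of the testis, 35 were called higher there and 30 higher in the ovary. The lists had 49 genes in common (49 of 100 of each), with a median of 1414 RPKM in the ovary and 535 in the testis, and 30 of these were called higher in the ovary.

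The gene with the largest difference was DMR_01561, with a coding length of 564 bases. It reached 1217 RPKM (19147 reads) in the testis of the breeder and 1689 RPKM (37107 reads) in that of the non-breeder, and had no read in either ovary library (log2 difference 10.49, SE 0.215, limma adjusted p = 9.96e-05). The groups did not overlap, and against the limit that a count of 0 allows, 3 reads over both ovary libraries together or 0.10 RPKM, DMR_01561 was at least 14971-fold higher in the testis. DMR_03959 (351 bases) reached 865 and 982 RPKM in the testes of the breeder and the non-breeder, again without a read in the ovary (log2 difference 9.85, SE 0.173, limma adjusted p = 9.96e-05). Against a limit of 0.16 RPKM, this gene was at least 5828-fold higher in the testis. These limits cover counting error only. Outside the gonads both genes were near 0: DMR_01561 did not exceed 0.507 RPKM in any of the 12 libraries, with no read in 5 of them, and DMR_03959 did not exceed 0.523 RPKM, with no read in 10.

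On the ovary side the largest difference belonged to DMR_16949 (2163 bases). Its level of 1883 RPKM in the ovary of the breeder was far from the 53.7 RPKM in that of the non-breeder, though both lay above the 3.35 and 5.55 RPKM of the breeding and non-breeding testis (log2 difference -5.91, SE 1.56, limma adjusted p = 0.0215). The call was lost without the breeding testis (adjusted p = 0.0913) and without the non-breeding testis (0.0716), within a range of 6.62e-06 to 0.0913 over 15 alternatives. Without the breeding ovary the log2 difference was -3.36. DMR_12131 (1035 bases) was steadier, with 153 and 155 RPKM in the breeding and non-breeding ovary and 1.97 and 2.16 RPKM in the testes (log2 difference -5.66, SE 0.174, limma adjusted p = 0.000114). Both ovary genes were also expressed in liver, at 25.9 RPKM (SD 4.64, n = 4) for DMR_16949 and 39.2 RPKM (SD 24.9, n = 4) for DMR_12131. In brain DMR_16949 stood at 5.11 to 10 RPKM, and in kidney it did not exceed 1.1 RPKM. DMR_12131 did not exceed 1.48 RPKM in any kidney or brain library.

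The 20 genes with the largest log2 difference in each direction, called leading here, include the 2 named above. They were chosen by this difference, so a low level in the other gonad follows in part from the choice. The 20 leading testis genes had log2 differences of 7.49 to 10.49 and a mean of 186 to 1560 RPKM in the testis, against 0 to 1.95 RPKM in the ovary. Of these 20 genes, 10 had no read in either ovary library, and 15 stayed below 1 RPKM in all 12 libraries of other tissues. The 20 leading ovary genes had log2 differences of -5.91 to -4.56 and a mean of 24.4 to 968 RPKM in the ovary, against 0.0406 to 25.7 RPKM in the testis. None of the 20 (0) was without a read in the testis, 4 stayed below 1 RPKM in all 12 other libraries and 7 reached it in all of them. The libraries of the own gonad were 2-fold or more apart for 7 of the 20 ovary genes and for 2 of the 20 testis genes.

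Reads on the 20 leading testis genes came to 2.53 and 1.25 per 1000000 reads on genes in the breeding and non-breeding ovary. In the testes they came to 7608 and 8478. The genes were chosen by this difference, so the contrast between the gonads follows from the choice. Kidney and brain libraries, which had no part in the choice, held 1.49 to 3.68. The livers of the breeding male and female stood above these, at 26.9 and 20.7, and the non-breeding livers did not, at 0.986 and 1.5. Without 2 genes that account for most of these liver reads, the other 18 genes had 48 and 57 reads in the breeding male and female livers, beside 13 to 57 in the other 12 non-testis libraries.

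**Figure D3:**
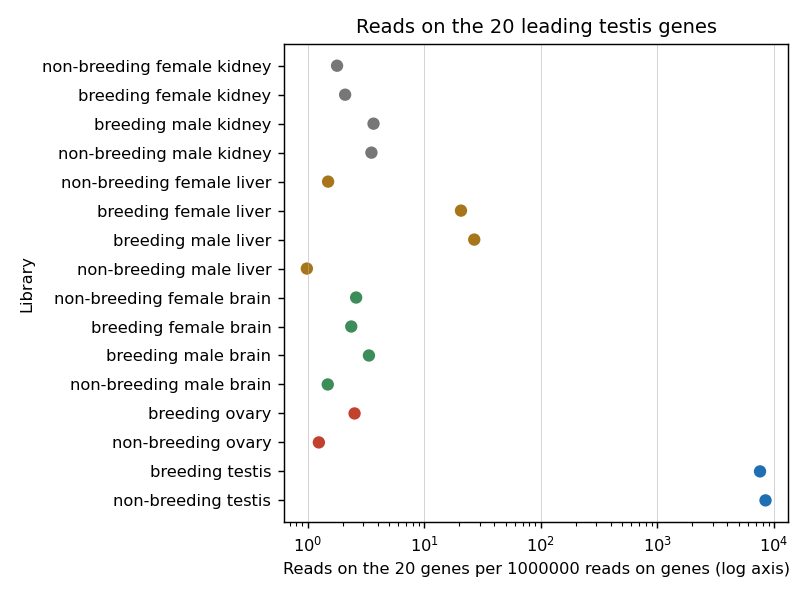
Reads on the 20 leading testis genes per 1000000 reads on genes (horizontal log axis) in each of the 16 libraries (vertical axis, 1 point a library, coloured by tissue). The testes reach 7608 and 8478, the breeding livers 26.9 and 20.7, and every other library lies between 0.986 and 3.68. The 20 genes were chosen by their difference between the testis and ovary libraries.

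Genes read in a single gonad were nearly all on the testis side. In 601 genes both testes reached 1 RPKM while both ovaries stayed below 0.1 RPKM, and 22 genes showed the opposite pattern. Requiring no read in the other gonad left 385 and 6 genes. The 601 testis genes had a median of 5.31 RPKM in the testis, 31 of them with a mean of 100 RPKM or more, and the 22 ovary genes a median of 3.43 RPKM in the ovary, none (0) with a mean of 100 or more. Leaving out a library drops a condition of this rule, so that both numbers can only rise. Without the non-breeding ovary the ovary count was 88, and without the breeding and the non-breeding testis it was 47 and 54. The testis count lay between 661 and 892 when any single library was left out.

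Not all of the 601 genes were testis genes when other tissues were considered. In the 12 libraries of kidney, liver and brain, 193 of them stayed below 0.1 RPKM, and 162 reached 1 RPKM in at least 1. The mean of another tissue exceeded that of the testis for 90 genes, in brain for 56, in liver for 22 and in kidney for 12, which leaves 511. It exceeded it more than 100-fold for 10 genes, 9 of them highest in liver. Among these was the most abundant gene of the liver libraries, chosen for this remark after its values were seen. It stood at 100241 to 193005 RPKM in the livers, at 23.1 RPKM (1106 reads) in the testis of the breeder and 14.9 RPKM (994 reads) in that of the non-breeder, and at 0.0962 RPKM (5 reads) and 0 in the breeding and non-breeding ovary. It was also at 18.4 RPKM or more in every kidney and brain library, so that the ovaries stood apart from the other 14 libraries. Among the 100 most abundant liver genes, 9 were called higher in the testis, 36 higher in the ovary and 33 neither, with 22 not tested. The shares of 26% and 21.2% among all genes tested leave out untested genes, so they have another base. Their median level was 16.9 RPKM in the breeding ovary, 6.17 in the non-breeding ovary, 4.65 in the breeding testis and 2.84 in the non-breeding testis, or 0.364%, 0.136%, 0.0791% and 0.0628% of the liver level. The part of other tissues' RNA in these values was not tested.

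The gene classes differed in how widely they were expressed elsewhere. Of the 4021 genes higher in the testis, 38.1% were at 1 RPKM or more in all 12 libraries of kidney, liver and brain, and 21.7% in none. The shares were 76.0% and 2.17% among the 3273 genes higher in the ovary and 67.4% and 6.89% among all genes tested. With libraries scaled to reads on genes, 35.0% of the testis genes and 73.3% of the ovary genes were at this level in all 12. Of all genes tested it was 64.6%. Of the testis calls 1617, and of the ovary calls 368, reached 1 RPKM in their own gonad alone and passed the filter only there. The filter thus shapes the classes unequally, and its part in these shares was not tested. Median levels of the testis genes were 1.74 RPKM in kidney, 1.18 in liver and 3.62 in brain, against 17.3 in testis and 1.6 in ovary. Those of the ovary genes were 18.2 RPKM in kidney, 17.8 in liver and 12.8 in brain, against 26.0 in ovary and 6.55 in testis. Genes of the testis class thus had low medians in all 4 other tissues. For the ovary class the order rests on the scaling: scaled to reads on genes, the medians were 33.9 in ovary, 20.2 in kidney, 14.8 in brain, 10.1 in liver and 9.69 in testis. The gonad levels of both classes are what they were called on.

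**Figure D4:**
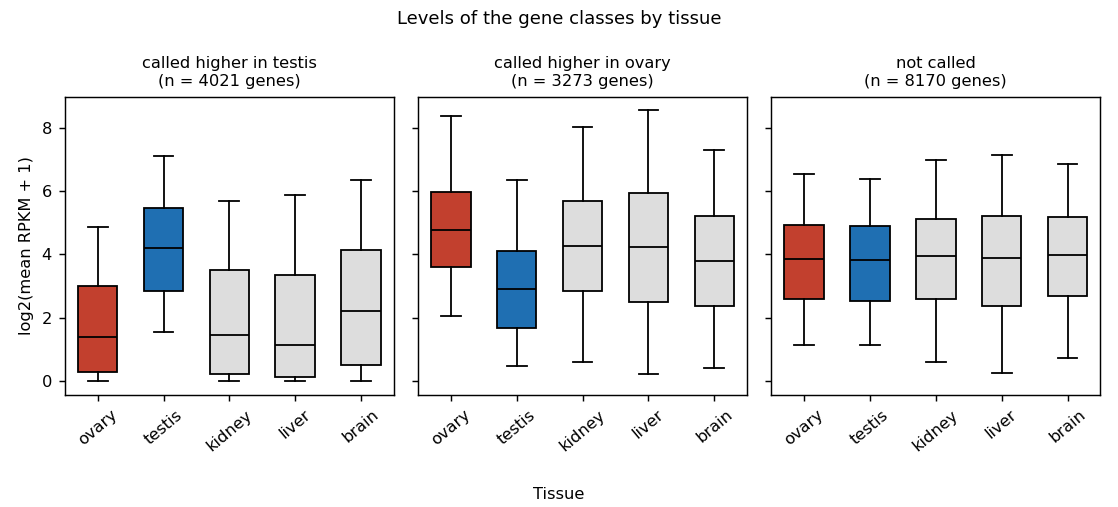
Levels in 5 tissues (log2 of the mean RPKM + 1) of genes called higher in testis (left), higher in ovary (middle) and not called (right). Boxes span the quartiles with the median as a line, and whiskers the 5th to 95th percentile of genes; testis genes stand out in the testis box alone (median 17.3 RPKM against 1.18 to 3.62 in the other 4 tissues), whereas for ovary genes, called on a low testis level, the testis box (6.55 RPKM) is the lowest.

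Gene by gene, the gonad means were set against the 12 other libraries. The testis mean exceeded every one of the 12 other libraries for 2816 of the 4021 testis genes (70.0%, beside 27.2% of all genes tested), and the ovary mean lay below all 12 for 392 (9.75%, beside 7.15%). On the ovary side, the ovary mean exceeded all 12 libraries for 1022 of 3273 genes (31.2%, beside 16.5%), and the testis mean lay below all 12 for 1299 (39.7%, beside 15.0%). The order of these shares on the ovary side rests on the scaling. Scaling to reads on genes lowers liver relative to the other tissues. With it, 1477 ovary genes (45.1%, beside 27.3% of all genes tested) had their ovary mean above all 12. For 583 (17.8%, beside 5.42%) the testis mean lay below all 12. Both shares stayed above those of all genes tested, which moved in the same directions. In both classes an excess over all genes follows in part from the call, which was made on these same gonad values. On the testis side the order was kept, at 77.4% (beside 38.4%) and 4.70% (beside 2.61%).

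Among kidney, liver and brain, the brain most often had the highest level of testis genes, for 49.5% of them beside 40.1% of all genes tested (57.0% beside 48.1% where libraries were scaled to reads). From the 12 other libraries alone, 69 genes were chosen. They were at 50 RPKM or more in all 4 brain libraries and below 0.5 RPKM in all 8 kidney and liver libraries. Of these, 26 were called higher in the testis, 2 higher in the ovary and 11 neither, while 30 were too low to be tested. The shares of 26% and 21.2% among all genes tested leave out untested genes, so they have another base. A gene low in the ovary passes the filter only through the testis, which leans such calls toward the testis. The median level of these 69 genes was 1.3 and 1.28 RPKM in the breeding and non-breeding testis, and 0.271 and 0.172 RPKM in the ovaries, or 1.15%, 1.10%, 0.208% and 0.179% of the brain level. For 14 kidney genes chosen in the same way the medians were between 0.0967% and 0.227% of the kidney level in the 4 gonad libraries, and for 10 liver genes between 0.0421% and 0.150% of the liver level.

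Coding length differed little between the classes. The median was 1233 bases for genes higher in the testis, 1182 for genes higher in the ovary, 1368 for genes not called and 1287 for all genes tested. The genes higher in the testis by 16-fold or more had a median of 986 bases and those higher in the ovary by 16-fold or more a median of 1062 bases. Among the fifth of genes with the shortest coding length, 639 bases or less, 30.8% were called higher in the testis. In the other length classes it was 24.4% to 25.4%. Calls higher in the ovary made up 22.9% of the shortest and 17.4% of the longest class. The lengths are the shortest that make a gene's reads whole, so genes read in few libraries can come out too short. Genes read in the testis alone are among these. Their part in the share of 30.8% and in the median of 986 bases was not tested.

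The difference between the gonads was compared in each breeding class, for which there is 1 library a side and no test. The breeding and the non-breeding pair share no library. In the breeding pair 49.6% of genes were 2-fold or more apart on the log2(RPKM + 1) scale, 4030 of them higher in the testis and 3633 higher in the ovary, and in the non-breeding pair 49.3%, 4363 and 3268. In both pairs 3488 genes (22.6%) were 2-fold or more higher in the testis and 2587 (16.7%) in the ovary. In opposite directions went 34 genes. Across genes, which are not independent replicates, the differences of the pairs had a Pearson r of 0.916. Between libraries, log2 values had an r of 0.963 between the ovaries, 0.973 between the testes and 0.561 to 0.608 between an ovary and a testis.

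**Figure D5:**
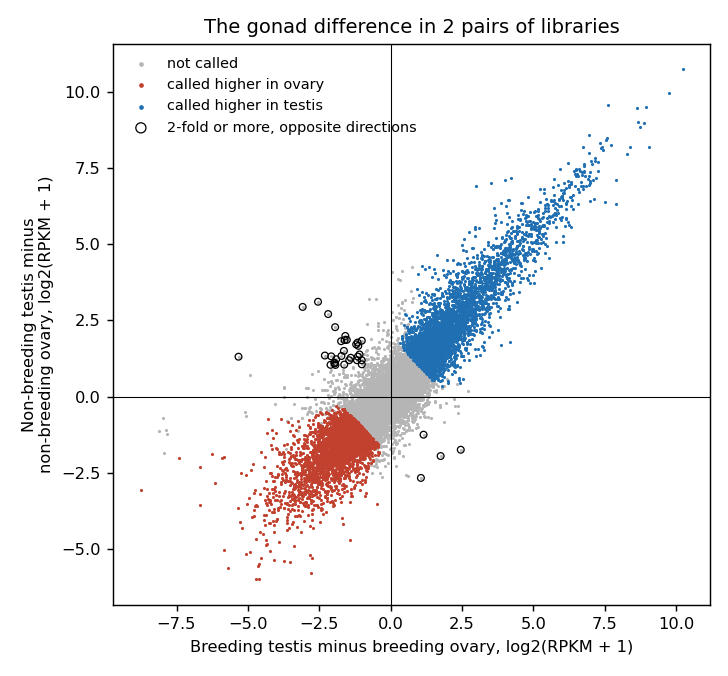
Log2(RPKM + 1) difference of testis minus ovary in the breeding pair (horizontal axis) and in the non-breeding pair (vertical axis) for each gene tested, with calls in blue (testis) and red (ovary). Most points follow the diagonal (Pearson r 0.916 across genes), and open circles mark the 34 genes that differed by 2-fold or more in opposite directions, 30 of them at the upper left.

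Of the 34 genes that went in opposite directions, 30 were higher in the ovary in the breeding pair and higher in the testis in the non-breeding pair. Their median levels over all 34 were 6.39 RPKM in the breeding ovary, 0.639 in the non-breeding ovary, 1.97 in the breeding testis and 4.10 in the non-breeding testis. The breeding ovary was the highest of the 4 libraries for 24 of them and the non-breeding ovary the lowest for 26. These genes were picked from the same 4 values, and the choice favours such medians and ranks. Over all genes, the ovaries differed more from each other than the testes did. Among all genes tested, 967 (6.25%) were 2-fold or more apart between the ovaries, 710 of them higher in the breeding library, and 444 (2.87%) between the testes, 76 of them higher in the breeding library. Among genes called higher in the ovary, 321 (9.81%) were 2-fold or more apart between the ovaries, and among genes called higher in the testis, 208 (5.17%) between the testes, with 17 of these higher in the breeding testis. A call requires a small spread within the gonads relative to the difference, so the shares among called genes depend on how these were chosen.

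Few genes differed between the sexes in other tissues. In the 12 libraries of kidney, liver and brain, with tissue and breeding status in the model, limma called 78 of 15964 genes between males and females (0.489%), 53 higher in males (0.332%) and 25 higher in females (0.157%). The non-breeding males are 5 and the non-breeding females 3 years old, and the brain library with the differing label is male, so sex cannot be told apart from age in the non-breeders, nor from the labelled region in their brain libraries. Kidney, liver and brain libraries of the same sex and status may also come from the same animal. The model has no term for animal, so the 12 libraries may not be independent. Of the 53 male genes 51 were tested in the gonads, where 14 were called higher in the testis and 6 higher in the ovary. Of the 25 female genes 24 were tested there, and 10 were called higher in the ovary and 1 higher in the testis. These counts stand beside 2998 testis and 3183 ovary calls among the 14167 genes tested in both fits. A set of 8 genes had at least 10 reads in each of the 6 male kidney, liver and brain libraries and no more than 1% as many in the female ones. All 8 were called higher in the testis, with log2 differences of 1.71 to 5.44. This outcome leans on the choice of the 8. A gene nearly unread in females that is also low in the ovary passes the filter only through the testis. Of the remaining 43 male genes tested, 6 were called higher in the testis and 6 higher in the ovary. Seen from the gonads, 0.50% of testis genes, 0.503% of ovary genes and 0.551% of genes not called also differed between the sexes elsewhere. Across 14167 genes the Pearson r of the gonad and the sex difference was 0.0669. The number of sex calls was 27 after scaling to reads on genes and 8 without the brain libraries, with 8 and 7 genes then higher in both males and testis, and 5 and 0 higher in both females and ovary.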

How the data were processed

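RNA of each library was taken up in TRIzol, enriched for poly(A) and sequenced as paired ends, with random hexamer priming and no mention of strand, per the labels' protocols. RPKM values of 16 libraries were deposited by the authors as a single table. TopHat 1.3.1 is named in the submitters' processing notes. Genome build, annotation and counter were not given in the sources used here. Whole reads and coding lengths were recovered from the deposited RPKM values, which are quotients of whole numbers. The length of a gene was the shortest found that made its reads whole in every library. That 100% of the values above 0 came within 1e-06 of a whole read follows largely from this choice. For a gene read in few libraries, length and reads can be a fraction of the true ones. The simulated test of recovery held only genes with reads in at least 3 libraries. Lengths are in steps of 3 bases by construction, and whether a read is an end or a pair is not known. Reads on genes came to 0.769 and 0.765 of the divisor in the breeding and non-breeding ovary, 0.665 and 0.686 in the testes and 1.55 to 1.97 in the livers, so results were also computed after scaling to reads on genes.

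Tests used limma 3.58.1 under R 4.3.3 on log2(RPKM + 1), with lmFit and eBayes with trend, two-sided, with 2 residual degrees of freedom and 3.46 added from all genes. The sex comparison called genes at an adjusted p of 0.05 or less. Named genes are the 2 called with the largest difference in each direction. Members, lists and tests were chosen with earlier results of these data known. Cell type markers listed for the gonads could not be used without gene names. Nothing in the labels says whether libraries come from separate animals, so p-values measure only the spread between these libraries. Alternatives were other pseudocounts, filters, scalings and models and leaving out each library. Fitting and recovery were tested on simulated data.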

Additional observations from a re-analysis of the deposited data

Results flagged for a closer look

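The 34 genes that were 2-fold or more apart in opposite directions in the breeding and the non-breeding pair stand out because the gonad that was higher differed between the pairs. Their medians, which the choice of these genes favours, were 6.39 RPKM in the breeding and 0.639 RPKM in the non-breeding ovary. In the breeding and non-breeding testis they were 1.97 and 4.10 RPKM. The difference between the pairs was not tested, as each has 1 library a side, and 0 of the 34 were called by limma in the comparison of the gonads. With a pseudocount of 0.1 the number was 73, and at 4-fold it was 3.

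Reads on the 20 leading testis genes appeared in all 14 libraries of other tissues and the ovary. The breeding male liver had 743 such reads and the breeding female liver 495, against 40 and 24 in the non-breeding female and male livers, 28 to 69 in kidney, 23 to 59 in brain, and 59 and 22 in the breeding and non-breeding ovary. In the breeding livers 2 of the 20 genes made up 695 of the 743 and 438 of the 495 reads. The first of these stood at 1330 and 1791 RPKM in the breeding and non-breeding testis, 181 and 102 RPKM in the breeding male and female livers and 1.49 and 5.12 RPKM in the non-breeding male and female livers. The other stood at 194 and 754 RPKM in the breeding and non-breeding testis, 42.6 and 29.6 RPKM in the breeding livers and 0.761 and 0.686 RPKM in the non-breeding livers. The 15 genes of the 20 that stayed below 1 RPKM in all 12 libraries had 29 to 53 reads in the breeding male kidney, liver and brain and the breeding female liver, and 2 to 17 in the other 8. The cause was not tested.

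Among 10 groups of 4 kidney or liver libraries checked, 3 held a library far from the other 3. Chance marks about 1 group in 20, but this rate does not apply to the 2 groups of DMR_03959, in which any read in a single library sets it apart. DMR_03959, the gene of the testis with the second largest difference, stood at 0.523 RPKM in the breeding male kidney and at 0.371 RPKM in the breeding female liver, and had no read in the other kidney and liver libraries. DMR_16949 of the ovary stood at 1.10 RPKM in the breeding female kidney, above the other kidneys.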

How the results depend on the processing

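The calls higher in the testis and in the ovary stayed within 1.5 times of 4021 and 3273 under 2 other pseudocounts, 2 other filters, 3 other scalings, voom, no trend, all 16 libraries and no minimum difference. With a log2 difference of at least 2 there were 2987 calls (1956 higher in testis, 1031 in ovary). Leaving out a library gave 4692 to 7170 calls, 1984 to 4193 of them higher in the testis and 2546 to 3113 higher in the ovary. Without the breeding and the non-breeding testis 4692 and 4707 genes were called (2146 and 1984 higher in testis). There a gene of the testis alone cannot reach 1 RPKM in 2 libraries, so that 1617 of the testis calls were not tested, DMR_01561 and DMR_03959 among them. The lone library was assumed to vary like the other gonad. DMR_01561 and DMR_03959 were called under all 13 alternatives in which they were tested, DMR_12131 under all 15 and DMR_16949 under 13 of 15. With breeding status as a block, pairing libraries of the same status, 7409 genes were called (4065 higher in testis, 3344 in ovary). Status marks no shared animal, and the deviations of same-status libraries had an r of -0.0963 across genes. The genes in opposite directions numbered 73 with a pseudocount of 0.1 and 3 at 4-fold, where both status pairs shared 1623 genes higher in testis and 703 higher in ovary. Genes read in the testis and not the ovary numbered 385 with no read in the ovary and 265 at 5 RPKM or more, with 6 and 4 in the ovary. Leaving out single libraries, chosen after seeing the data, can only raise these counts, and gave 661 to 892 and 29 to 88. The sex comparison gave 27 genes scaled to reads and 8 without brain. Each gonad has 2 libraries, each from another breeding class, and differences near 2-fold often stay uncalled. The minimum on the log2 difference has a part in this, as 9500 genes were called without it and 7294 with it. Whether depth limits the calls on genes near 1 RPKM was not tested.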

Other observations

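Genes with neighbouring identifiers tended to be called in the same direction. Of 12062 pairs of consecutive identifiers tested, 3042 had their first gene called higher in the testis, and the second was then called higher in the testis in 30.7% of pairs, beside 25.2% of all second genes. For the ovary the shares were 27.2% of 2547 pairs and 21.1%. Whether consecutive identifiers lie next to each other in the genome is unknown here, and no test was made, since genes are not replicates.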
